A study of Mus musculus with 2 samples.

Results

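The genes described here encode the subunits of integrins and laminins in the developing mouse ureter. Members were all genes with a mouse symbol beginning Itga, Itgb or Lama, Lamb and Lamc in the pattern of these families and with a probe on both arrays. This gave 36 genes out of 32081 genes or unnamed transcripts on the arrays: 17 integrin alpha, 8 integrin beta and 11 laminin genes. They were carried by 48 probes, and 32 genes passed a filter on dim probes and were tested. Itgae, which belongs to the same family, was not analysed here. The rule itself uses no measured value.

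Ureters of NMRI mouse embryos at E14.5 were compared on 2 two-colour arrays, each holding the total RNA of 1 labelled knockout and 1 control. The labelled knockout had 1 Cre allele at Tbx18, written Tbx18(cre/+), and was homozygous floxed for its targets, written Tbx2(fl/fl) and Tbx3(fl/fl). Controls were Tbx18(+/+) with Tbx2(fl/?) and with Tbx3(fl/?), in which the question mark is an allele that the labels do not specify. Both groups thus carried at least 1 floxed allele of each gene, and only the labelled knockout carried Cre at the Tbx18 locus, so effects of the Cre allele and of the deletion cannot be told apart. The female pair had the labelled knockout RNA in AlexaFluor647. In the male pair the dyes were exchanged, which ties sex to dye orientation, and the effects of the former and the latter cannot be told apart. Tbx18 is active in progenitors of the ureteric mesenchyme, which gives rise to the muscle and connective tissue around the urothelium, the epithelial lining. The RNA came from the whole ureter, in which fewer cells of a type and less RNA per cell cannot be told apart. The number of embryos behind each RNA and their litters were not given in the sources used. The p-values rest only on the spread between these 2 pairs, moderated by that spread pooled over all genes tested.

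Integrins are receptors in the cell membrane built of an alpha and a beta chain, and they tie the matrix outside the cell to actin inside it. Laminins are cross-shaped proteins of basement membranes, each built of an alpha, a beta and a gamma chain. Each alpha chain of an integrin sets its ligand: some bind laminins, some collagens, some the RGD motif of fibronectin and related proteins, and some the surface of other cells. In smooth muscle, laminin receptors and the basement membrane around each cell carry force, while in epithelia they hold the cell sheet to the tissue below.

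Promoter sequences are shown for members whose difference between labelled knockout and control had an adjusted p under 0.10 and which the RefSeq promoter table holds, because a reader may wish to see whether T-box or muscle motifs lie there. They are from RefSeq, build GRCm38.p6, each the 250 bases before the start of the gene, 5′ to 3′ on the gene's own strand. Itga1 lies on the minus strand at chr13:115101965-115102214, Itga8 on the minus strand at chr2:12301945-12302194, Itga9 on the plus strand at chr9:118711442-118711691, and Lama2 on the minus strand at chr10:27616943-27617192. Capitals mark a CArG box, the motif bound by serum response factor. Lama1, Itga6, Itga7 and Lamc3 have no entry in the table.
Itga1: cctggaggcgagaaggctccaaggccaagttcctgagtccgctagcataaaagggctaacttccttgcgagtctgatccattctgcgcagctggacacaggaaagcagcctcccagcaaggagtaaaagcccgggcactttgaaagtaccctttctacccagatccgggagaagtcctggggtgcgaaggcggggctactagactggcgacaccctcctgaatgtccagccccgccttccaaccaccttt
Itga8: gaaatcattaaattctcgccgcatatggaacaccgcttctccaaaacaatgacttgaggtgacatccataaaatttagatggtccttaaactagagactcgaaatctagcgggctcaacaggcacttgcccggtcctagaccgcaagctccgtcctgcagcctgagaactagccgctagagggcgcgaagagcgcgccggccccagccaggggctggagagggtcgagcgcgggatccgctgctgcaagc
Itga9: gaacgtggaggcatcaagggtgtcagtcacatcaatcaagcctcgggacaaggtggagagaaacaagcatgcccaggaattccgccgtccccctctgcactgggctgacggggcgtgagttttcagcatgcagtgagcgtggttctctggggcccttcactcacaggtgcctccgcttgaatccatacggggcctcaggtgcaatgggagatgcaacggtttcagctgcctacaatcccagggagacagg
Lama2: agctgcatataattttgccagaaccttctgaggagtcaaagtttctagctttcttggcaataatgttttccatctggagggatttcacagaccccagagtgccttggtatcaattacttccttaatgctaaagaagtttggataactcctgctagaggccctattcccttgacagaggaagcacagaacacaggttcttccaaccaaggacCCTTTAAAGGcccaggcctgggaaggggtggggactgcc
A CArG box was found in the Lama2 sequence, starting at position -39 from the start, and in none of the other printed sequences. The T-box core, searched as TCACACC on both strands, was in none of the 4. Over the window from 250 bases before to 50 after the start, 3.98% of 32851 promoters in the table held the T-box core and 1.63% a CArG box. Of 26 promoters of 23 members, 1 held the T-box core (Itga4) and 2 a CArG box (Itgb6 and Lama2). These matches describe letters in the window and say nothing of binding.

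As a check of the labels, Tbx3 was lower in the labelled knockout in both pairs, by log2 fold changes of -1.16 and -1.02 (mean -1.09 ± 0.10, SD over 2 pairs, adjusted p = 0.000862). Tbx2 went against its label: it was higher, by 0.94 and 0.78 (mean 0.86 ± 0.12, adjusted p = 0.00236). The sources used here do not say which part of each gene its probe reads, so directions below are those of the RNA labelled knockout. Of the 20629 genes tested with limma, 759 passed an adjusted p of 0.05, which is 3.68%: 385 were higher (1.87%) and 374 lower (1.81%). Between 64.3% and 71.6% of spots in each channel were well above background, and 0 were saturated. Only 2 pairs were measured, and that number limits the precision of every value.

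Among the 32 members tested, 2 rose in the labelled knockout, Lama1 and Itga7, and 1 fell, Lamc3. The other 29 did not pass. These 3 calls are 9.38% of the members, against 3.68% of all genes tested. The members' log2 fold changes had a median of 0.020, against -0.0021 over all genes tested, while the median size, regardless of sign, was 0.17 for members and 0.058 for all genes. Levels of members were close to those of other genes, with a median log2 intensity of 11.9 against 11.6. Both pairs gave the same sign in 26 of 32 members (81.2%), 13 above 0 and 13 below, and in 55.8% of all genes. For 29 of 32 members the 95% interval of the mean excluded a 1.5-fold change in either direction; the exceptions were Lama1, Lamc3 and Itga9. For all 32 it excluded a 2-fold change. Below, groups are said not to overlap where both labelled knockout levels lie on the same side of both controls. The share of all genes that do so was not counted, and such separation compares levels across the 2 arrays. Lama4, Itgb5, Itgb6, Lamb1, Lama3, Lamb3, Itga3, Itga4, Itga10 and Itga2b also separate in this way, though that is not repeated for them below. Such separation is thus common among members and does not mark out the genes for which it is named. It describes the 4 values and is not a test.

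**Figure D1:**
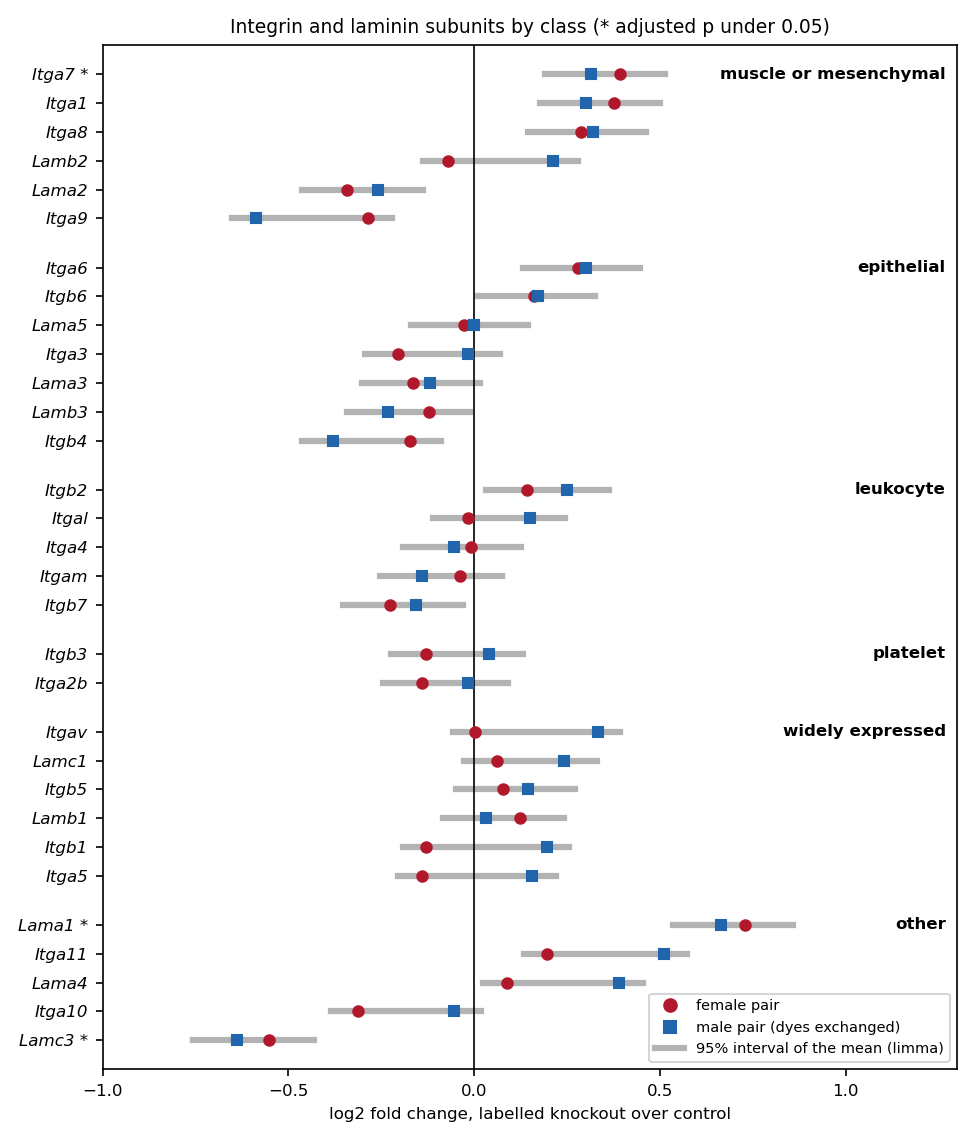
Log2 fold change of the labelled knockout over control (horizontal axis) for 31 of the 32 members tested, grouped by the class in which each subunit is best known. Circles are the female pair, squares the male pair with dyes exchanged, grey bars the 95% interval of the mean from limma, and asterisks mark Lama1, Itga7 and Lamc3. The circle and square of each of these 3 lie on the same side of 0.

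Laminin chains held both the highest and the lowest member. Lama1, the alpha chain of early embryonic and epithelial basement membranes, had log2 intensities of 12.54 in the labelled knockout and 11.81 in the control of the female pair, with 12.24 and 11.57 for the male pair. Both labelled knockout RNAs lay above both controls. The gene rose by 0.73 and 0.66 on the log2 scale, a mean of 0.70 ± 0.046 (95% interval 0.54 to 0.86, adjusted p = 0.00377), or 1.62-fold. Lama1 kept its call under all 13 alternatives run, with adjusted p between 0.000626 and 0.0424.

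Lamc3, a gamma chain known from peripheral nerve, retina and the surface of the brain cortex, moved the other way. Its log2 intensities were 11.46 against 12.01 (female pair) and 11.27 against 11.90 (male pair), labelled knockout first. Both labelled knockout RNAs lay below both controls. Lamc3 fell by a mean of 0.60 on the log2 scale, or 1.51-fold (log2 fold changes -0.55 and -0.64, SD 0.062, 95% interval -0.76 to -0.43, adjusted p = 0.0075). The call was lost with the deposited value table (adjusted p = 0.059) and with median centring (adjusted p = 0.0737), at means of -0.61 and -0.56.

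Of the other laminin alpha chains, Lama2, the chain of the basement membrane around muscle fibres, came nearest to the threshold. Its log2 intensities were 13.97 and 14.05 in the labelled knockout and 14.31 and 14.30 in the controls, with no overlap. The mean log2 fold change was -0.30 ± 0.060 (adjusted p = 0.0786), and a second probe gave -0.27. Lama4, the chain of vessels and mesenchyme, had 0.089 for the female and 0.39 for the male pair (mean 0.24 ± 0.21, adjusted p = 0.286). Lama5, the main alpha chain of mature epithelial basement membranes, had -0.027 and 0.00095 (mean -0.013 ± 0.020, adjusted p = 0.986).

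Of the beta and gamma chains that pair with most alpha chains, none passed. Lamb1, found in many basement membranes, had a mean of 0.079 ± 0.065 (adjusted p = 0.787). Lamc1, the gamma chain of most laminins, had log2 intensities of 15.91 and 16.00 in the labelled knockouts and 15.85 and 15.76 in the controls, without overlap (mean log2 fold change 0.15 ± 0.13, adjusted p = 0.465). Lamb2, the beta chain of muscle and kidney filters, had log2 fold changes of -0.072 (female) and 0.21 (male). Lama3 and Lamb3, chains of the laminin that anchors epithelia, lay below 0 in both pairs with the probes used. Their means were -0.14 ± 0.033 and -0.18 ± 0.078, with adjusted p of 0.428 and 0.316, and neither passed. A second Lama3 probe had 0.041 (female) and -0.38 (male). Over all 11 laminin genes, 1 rose, 1 fell and 9 did not pass, with a median of -0.013.

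**Figure D2:**
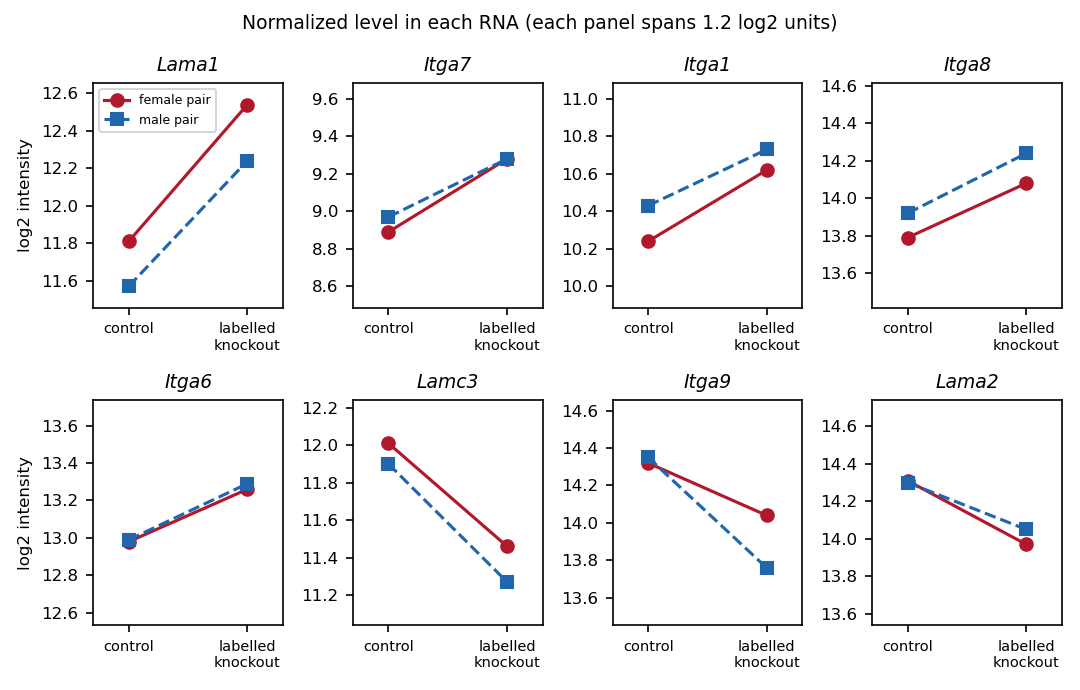
Log2 intensity (vertical axis) of selected members in the 4 RNAs, with labelled knockout and control of each pair joined by a line. The lines of Lama1 and Itga7 rise in both pairs, those of Lamc3 fall in both pairs, and levels of different genes are not comparable because each probe has its own brightness.

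Integrin alpha chains that bind laminin did not move as a block. Itga7, the laminin receptor chain of muscle cells, had log2 intensities of 9.28 and 9.28 in the labelled knockouts and 8.89 and 8.97 in the controls, female pair first. Both labelled knockout values lay above both controls. Itga7 rose by 0.39 and 0.31, a mean of 0.35 ± 0.054 (95% interval 0.19 to 0.51, adjusted p = 0.0457), or 1.28-fold. This call was lost under 4 of 13 alternatives, at adjusted p of 0.0532 with an intensity trend, 0.0872 with the processed signals, 0.119 with the deposited value table and 0.239 with median centring. The mean under these 4 was 0.35, 0.41, 0.41 and 0.37, in that order, against 0.35.

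Itga6, the laminin receptor chain of epithelial and endothelial cells, had 13.26 and 13.29 in the labelled knockouts and 12.98 and 12.99 in the controls. The groups did not overlap, and the mean of 0.29 ± 0.016 did not pass (adjusted p = 0.0797). Itgb4, which pairs only with Itga6 in hemidesmosomes, had log2 intensities of 11.73 and 11.42 in the labelled knockouts and 11.90 and 11.80 in the controls, without overlap (log2 fold changes -0.17 and -0.38, mean -0.28 ± 0.15, adjusted p = 0.148). Itga3, another laminin receptor chain of epithelia, had -0.20 and -0.018 (mean -0.11 ± 0.13, adjusted p = 0.669). Whether Itga6 and Itgb4 differ from each other was not tested.

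Among the collagen receptor chains, Itga1, known from smooth muscle and fibroblasts, had 10.62 and 10.73 in the labelled knockouts and 10.24 and 10.43 in the controls. These groups did not overlap, and the mean of 0.34 ± 0.054 fell just short (adjusted p = 0.0524). A second Itga1 probe gave 0.34 (female) and 0.075 (male). Itga11, the fibroblast receptor for fibrillar collagen, had 10.01 and 10.03 against 9.81 and 9.52, without overlap; its pair values were 0.20 and 0.51 (mean 0.35 ± 0.22, adjusted p = 0.116). Itga10, the cartilage collagen receptor, had -0.31 and -0.053 (mean -0.18 ± 0.18, adjusted p = 0.417). Itga2, the collagen receptor of epithelia and platelets, did not pass the filter on dim probes.

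Itga8 and Itga9 lay on opposite sides of 0. Itga8, the receptor for nephronectin in the kidney and a chain of mesenchymal and smooth muscle cells, had 14.08 and 14.24 in the labelled knockouts and 13.79 and 13.92 in the controls. Those values did not overlap, and their mean difference was 0.30 ± 0.022 (adjusted p = 0.0693). Itga9, a smooth muscle and lymphatic receptor for tenascin C, osteopontin and VCAM1, had 14.04 and 13.76 in the labelled knockouts and 14.32 and 14.35 in the controls. Here the labelled knockouts were the lower ones, without overlap, and the log2 fold change was -0.29 for the female and -0.59 for the male pair (mean -0.44 ± 0.21, 95% interval -0.65 to -0.22, adjusted p = 0.0571).

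None of the receptor chains found on most cells passed, and pair values of Itgb1 and Itga5 disagreed in sign. Itgb1, the partner of most alpha chains, had -0.13 (female) and 0.19 (male) (mean 0.032 ± 0.23, adjusted p = 0.968). Itga5, the fibronectin receptor chain, had -0.14 and 0.16 (mean 0.0073 ± 0.21, adjusted p = 0.993). Itgav, which binds RGD ligands with several beta chains, had log2 intensities of 12.16 and 12.54 in the labelled knockouts and 12.16 and 12.21 in the controls. Only the male labelled knockout stood above the rest, and the log2 fold changes were 0.0029 and 0.33 (mean 0.17 ± 0.23, adjusted p = 0.538), with -0.064 and 0.26 from a second probe. Itgb5, one of its partners, had 0.077 and 0.15 (mean 0.11 ± 0.048, adjusted p = 0.591). Itgb6, the epithelial partner of Itgav that activates TGF-beta, had 0.16 and 0.17 (mean 0.17 ± 0.0081, adjusted p = 0.315). Itgb8, another partner, did not pass the filter.

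**Figure D3:**
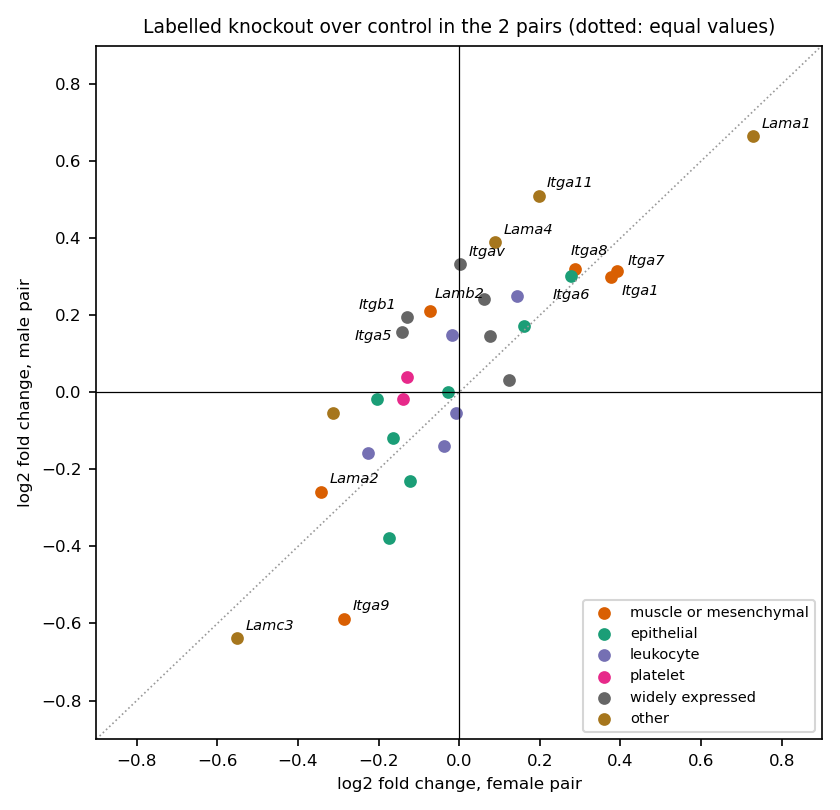
Log2 fold change of labelled knockout over control for the female pair (horizontal axis) and the male pair (vertical axis), 1 point for each of 31 members, coloured by class, with equal values on the dotted line. Lama1 and Lamc3 lie near the line at opposite ends, while Itgb1, Itga5 and Lamb2 lie left of 0 and above 0.

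The male value was above the female value in 22 of 32 members (68.8%), against 54.7% of all genes tested. The median of male minus female was 0.070 for members and 0.017 for all genes. The 6 members with opposite signs in the pairs were Itga5, Itgal, Itgb1, Itgb3, Lama5 and Lamb2, and each was below 0 in the female pair. No test of a difference between the pairs is possible with 1 array each.

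Read by class, the 6 muscle or mesenchymal subunits (Itga1, Itga7, Itga8, Itga9, Lama2 and Lamb2) had 1 that rose, 0 that fell and 5 that did not pass. Their means ran from -0.44 to 0.35 with a median of 0.19: Itga1, Itga7 and Itga8 were above 0 in both pairs, Lama2 and Itga9 below in both. At an unadjusted p under 0.05 in limma, 3 were higher and 2 lower. The share of all genes at that threshold was not counted, here or for any group below. Contractile smooth muscle markers, by contrast, had 8 of 10 tested that fell, against 1.81% of all genes. These markers had a median of -2.57 and a range from -3.55 to -0.079. Their summed log2 level was 15.88 in both labelled knockout RNAs and 17.63 and 17.96 in the controls. Ckm and Lmod1 of that list did not pass the filter. The part of this loss in the muscle subunits' values was not tested.

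The epithelial class held 8 tested genes, among them Itga3, Itga6, Itgb4, Itgb6, Lama3, Lama5 and Lamb3. By limma, 0 rose and 0 fell, with 2 higher and 3 lower at an unadjusted p under 0.05. Their median was -0.13, 2 were above 0 in both pairs, 5 below and 1 opposite. Of all genes tested, 27.6% were above 0 in both pairs, 28.2% below and 44.2% opposite. The 16 urothelium markers had a median of -0.040, 0 of them passed in limma, and 2 were higher and 3 lower at an unadjusted p under 0.05. Their summed log2 level was 18.07 and 18.10 in the labelled knockouts against 18.24 and 18.15 in the controls. All 16 passed the filter.

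Leukocyte subunits were measured for 5 of the 7 genes on the arrays: Itga4, Itgal, Itgam, Itgb2 and Itgb7. None passed in limma, with 1 higher and 1 lower at an unadjusted p under 0.05, and the median was -0.032. Itgb2, the shared beta chain of leukocyte adhesion receptors, had log2 intensities of 8.53 and 8.43 in the labelled knockouts and 8.39 and 8.18 in the controls (mean log2 fold change 0.20 ± 0.077, adjusted p = 0.253). Both labelled knockout values lay above both controls. Itgb7, the gut-homing beta chain of lymphocytes, had 8.62 and 8.51 against 8.85 and 8.67, with both labelled knockouts below both controls (mean -0.19 ± 0.050, adjusted p = 0.249).

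Itga4, the VCAM1 and fibronectin receptor chain that mesenchyme also carries, had -0.0089 and -0.054 (mean -0.032 ± 0.032, adjusted p = 0.954). A second Itga4 probe had -0.14 and -0.21, at log2 intensities of 7.17 to 7.38 against 13.19 to 13.24 for the probe used. Itgal and Itgam, the alpha chains of lymphocyte and macrophage adhesion, had means of 0.067 ± 0.12 (adjusted p = 0.863) and -0.089 ± 0.072 (adjusted p = 0.739). The Itgam probe used had log2 intensities of 13.69 to 14.01, and its other passing probes 7.13 to 7.52. What sets these probes apart in brightness was not tested. Itgad and Itgax, of macrophages and dendritic cells, did not pass the filter. Of 14 leukocyte markers 0 passed in limma, and their median was 0.11. At an unadjusted p under 0.05 in limma 5 were higher, with no count over all genes to set beside it. Above 0 in both pairs were 11 of the 14, against 27.6% of all genes. The summed log2 level of these markers was 15.77 and 15.80 in the labelled knockouts and 15.65 and 15.67 in the controls. Its part in the class was not tested.

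The platelet chain Itga2b had log2 intensities of 7.53 and 7.58 in the labelled knockouts and 7.68 and 7.59 in the controls (mean log2 fold change -0.078 ± 0.088, adjusted p = 0.796). Its partner Itgb3 had 11.27 and 11.25 against 11.40 and 11.21, which overlapped (mean -0.045 ± 0.12, adjusted p = 0.929). Neither passed in limma, nor at an unadjusted p under 0.05. Of 8 platelet markers on the arrays, Gp1ba, Gp5 and Gp6 did not pass the filter. The other classes were the 6 widely expressed chains, with 0 passing in limma, also at an unadjusted p under 0.05, and a median of 0.095, and 5 of 6 remaining genes, with 1 higher, 1 lower and a median of 0.24. Markers of glia and neurons, cells that also make laminins and integrins, had a median of 0.27. Of these markers, 4 of 15 were higher and 0 lower, against 1.87% and 1.81% of all genes. Their summed log2 level was 15.83 and 15.76 in the labelled knockouts and 15.75 and 15.75 in the controls, and its part in any member's value was not tested.

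The 4 members that did not pass the filter, Itga2, Itgad, Itgax and Itgb8, had fewer than the required spots well above background in the RNAs, so these ratios are of signals near background: -0.10 and 0.11, -0.061 and -0.079, 0.058 and 0.069, and 0.048 and 0.18, in that order. Of the members on the arrays 11 had more than 1 probe, and 10 had more than 1 that passed. Means of such probes differed by 0.025 to 0.20. For Itgal, Itgam and Itgb1 the probes lay on both sides of 0, and for Itgam the 3 probes ran from -0.089 to 0.12.

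Ligands and partners of these receptors were read from 3 lists. Of 31 matrix and cell surface ligands tested, 5 rose and 0 fell, with 16 higher and 4 lower at an unadjusted p under 0.05 in limma. The ligands' median was 0.19, and 22 were above 0 in both pairs, 7 below and 2 opposite. Of all genes tested, 1.87% were higher and 1.81% lower at an adjusted p under 0.05. In both pairs, 27.6% of all genes lay above 0 and 28.2% below, and 44.2% were opposite. The share of all genes at an unadjusted p under 0.05 was not counted. Vcam1, a ligand of Itga4 and Itga9 on the surface of other cells, rose by 0.64 and 0.78 (mean 0.71 ± 0.098, adjusted p = 0.0045). Spp1, or osteopontin, an RGD ligand, rose by 0.78 and 0.62 (mean 0.70 ± 0.11, adjusted p = 0.00533). Thbs4, a thrombospondin, rose by a mean of 0.64 ± 0.073 (adjusted p = 0.00594), Frem1, a matrix protein of epithelial basement membranes, by 0.62 ± 0.13 (adjusted p = 0.00905), and Ccn3 by 0.57 ± 0.082 (adjusted p = 0.00959).

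Several ligands of single members did not pass. Npnt, or nephronectin, the ligand of Itga8, had -0.11 and -0.16 (mean -0.14 ± 0.035, adjusted p = 0.455). Tnc, a ligand of Itga9, had 0.26 and 0.39 (mean 0.32 ± 0.092, adjusted p = 0.0702), and Fn1, fibronectin, had 0.27 and 0.31 (mean 0.29 ± 0.023, adjusted p = 0.0807). Itga8 and Npnt thus lay on opposite sides of 0 in both pairs, as did Itga9 and Vcam1, and these differences between genes were not tested. Npnt, Tnc and Fn1, and Tln1, Ptk2, Pxn, Fermt2, Rsu1 and Lims1 below, were picked for naming after their values were seen.

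**Figure D4:**
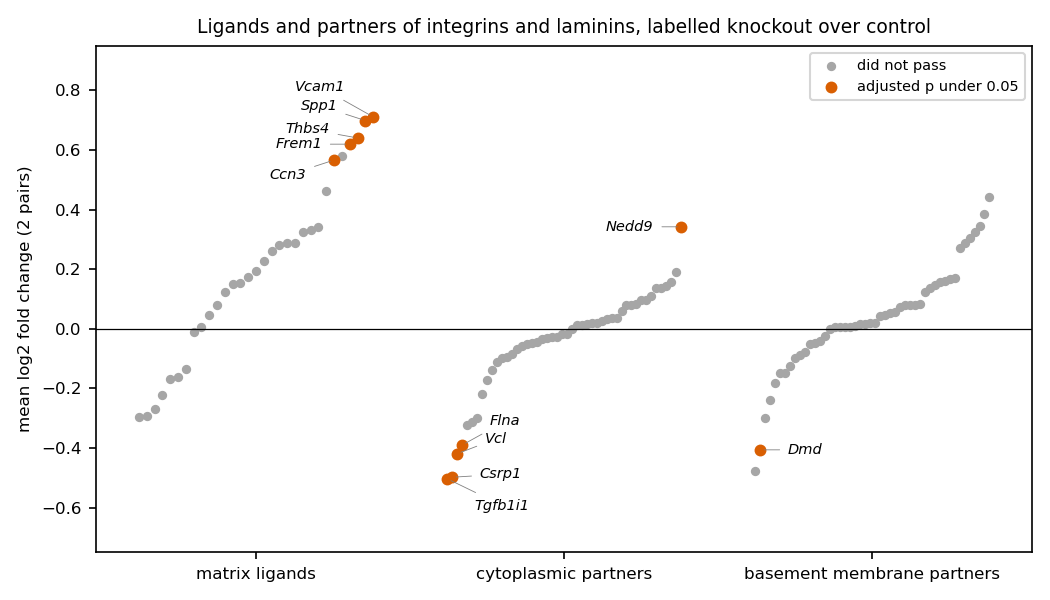
Mean log2 fold change over 2 pairs (vertical axis) of 31 matrix ligands, 48 cytoplasmic partners and 48 basement membrane partners, ordered by value within each list, with genes past an adjusted p of 0.05 in colour and named. Matrix ligands have 5 such genes, all above 0, and the cytoplasmic partners have 4 below 0 and Nedd9 above.

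Proteins that link integrins to actin inside the cell had 1 of 48 higher and 4 lower, against 1.87% and 1.81% of all genes, with a median of -0.018. Nedd9, a scaffold of focal adhesions, rose by 0.34 ± 0.027 (adjusted p = 0.0476). Flna, filamin A, which crosslinks actin and binds integrin tails, fell by 0.39 on the log2 scale (SD 0.0068, adjusted p = 0.0298). Vcl, vinculin, fell by 0.42 (SD 0.12, adjusted p = 0.0364). Csrp1 and Tgfb1i1, LIM proteins of smooth muscle and focal adhesions, each fell by 0.50 (SD 0.017 and 0.079, adjusted p = 0.0124 and 0.0141). Other adhesion genes did not pass and varied: Tln1, talin, had a mean of 0.019 ± 0.13, Ptk2, focal adhesion kinase, 0.014 ± 0.0091 and Pxn, paxillin, -0.018 ± 0.0004. Fermt2, or kindlin-2, which activates integrins with talin, had -0.31 and -0.33 (mean -0.32 ± 0.014, adjusted p = 0.0559). Rsu1 and Lims1, partners of integrin-linked kinase, had means of -0.31 (adjusted p = 0.0693) and -0.30 (adjusted p = 0.0927), below 0 in both pairs. The 4 falling genes are also known from smooth muscle, whose markers fell as given above, and that part was not tested.

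Of 48 basement membrane partners, 0 rose and 1 fell, against 1.87% and 1.81% of all genes, with 8 higher and 4 lower at an unadjusted p under 0.05 in limma and a median of 0.019. Dmd, dystrophin, which ties the actin of muscle cells to the laminin receptor dystroglycan, fell by 0.41 (SD 0.12, adjusted p = 0.0398). Col4a6, a type IV collagen chain of smooth muscle basement membranes, had -0.65 and -0.31 (mean -0.48 ± 0.24, adjusted p = 0.0512). Smoc2, a calcium-binding matrix protein, had 0.23 and 0.65 (mean 0.44 ± 0.29, adjusted p = 0.0971). The laminin crosslinkers Nid1 and Nid2 had means of -0.15 ± 0.15 (adjusted p = 0.5) and -0.15 ± 0.11 (adjusted p = 0.463), and were named after their values were seen. Neither nidogen passed.

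These values rest on 2 pairs and 1 residual degree of freedom, so p-values close to 0.05 lean on the spread pooled over genes. Among list genes, the calls of Dmd, Nedd9, Flna, Vcl, Csrp1 and Tgfb1i1 were each lost with the processed signals, the deposited value table and median centring (limma adjusted p from 0.0536 to 0.899, log2 fold changes from -0.49 to -0.33 for the 5 that fell and 0.35 to 0.38 for Nedd9). Also lost were those of Frem1 and Ccn3 with the deposited value table and median centring (adjusted p from 0.0563 to 0.0859, log2 fold changes from 0.57 to 0.64), that of Flna with an intensity trend (0.118) and that of Vcl with the mean of its probes (0.0654).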

How the data were processed

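Total RNA was labelled and hybridised to 2 two-colour Agilent arrays, and scanned spots were read, per the submitters' processing notes, with Agilent Feature Extraction 10.7.3.1. The deposited scanner files hold spot intensity and local background intensity in 2 channels, not normalized, and processed intensity signals, per the file headers. The deposited table of values has 1 signed fold for each probe on each array, made in a way that the sources used here do not give. Its log2 values had correlations of 0.982 and 0.985 with the processed signals over 24806 probes, its median was 1, 33.7% and 34.1% of values were exactly 1, and neither its floor nor its centring is known.

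Intensities were corrected with normexp (offset 50) and each array was normalized by loess, giving control spots weight 0. Non-uniform spots (186 and 223) were dropped, each probe's 4 spots were averaged, and log2 ratios turned to labelled knockout over control. Probes with more than 0.5 of spots well above background in 1 of the groups on both arrays were kept (25934 of 39396). Accessions were named through a RefSeq table of assembly GRCm38.p6, which named 28303 probes and left 11093 unnamed. The brightest probe stood for a gene. Levels are log2 intensities per channel after loess and Aquantile.

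The test was limma 3.58.1 (R 4.3.3), with lmFit, eBayes, two-sided p-values and Benjamini-Hochberg adjustment over 20629 genes; residual and prior degrees of freedom were 1 and 5.24. The procedure was tested on simulated data, in which unchanged genes made up a larger share of the calls than the threshold allows, so calls close to it are less sure than their adjusted p. Each pair is 1 array, so the pairing is part of every ratio. Members, classes and gene lists were chosen with earlier results of these data known. Any member may be named. The value in each RNA is given for members past the threshold and, in classes where fewer than 2 passed, the 2 with the largest mean change. Outside this rule, values in each RNA are also given for Itga1, Itga8, Itga11 and Lama2, and ranges for Itga4 and Itgam. Of the lists, genes past the threshold are named, or the 2 with the largest change where fewer than 2 passed, and exceptions are marked. Single values of some genes are not reported here. Alternatives covered background, normalization, filter, probes, variance model and threshold.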

Additional observations from a re-analysis of the deposited data

Results flagged for a closer look

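The 2 pairs, which differ in sex and in dye orientation together, lay on opposite sides of 0 for some members and medians. None of these differences was tested, since each pair is 1 array. For Itgb1 the male value was above the female by 0.32 on the log2 scale, for Itga5 by 0.30 and for Lamb2 by 0.28. For Itgb3 the gap was 0.17, for Itgal 0.17 and for Lama5 0.028. Among medians, that of the integrin beta chains was 0.28 higher in the male pair, that of the integrin alpha chains 0.17, that of the laminins 0.072 and that of all members 0.12. The platelet chains' median was 0.15 higher and the platelet markers' 0.069 higher. For the cytoplasmic partners the median was 0.12 higher in the male pair, for the basement membrane partners 0.064 and for all 3 lists together 0.079. The urothelium markers' median differed by -0.050, male minus female.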

How the results depend on the processing

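Of 32 members, 28 kept their sign under all 13 alternatives, and Itga5, Itgam, Itgb1 and Lama5 did not. Alternatives that change only the variance model, or count each probe by itself, use the same ratios, so no sign could change under them. Lama1 stayed past the threshold throughout, and calls of Itga7 and Lamc3 were lost as given in the report. Under some alternatives further members passed: Itga1 (5 of them), Itga9 (4), Itga8 (2), Itga6 and Lama2 (1 each). Against 2 members higher and 1 lower, with 385 and 374 of all genes and 6 and 5 list genes, the counts were as follows. The processed signals gave 1 member higher, 249 and 214 of all genes, and 0 list genes lower (16 at an unadjusted p under 0.05 in limma). The deposited value table gave 1 member higher and 0 lower (5 at an unadjusted p under 0.05 in limma), 142 and 143 of all genes, and 3 and 0 list genes (14 lower unadjusted). Median centring gave 1 and 0 members (4 lower at an unadjusted p under 0.05 in limma), 114 and 128 of all genes, and 3 and 0 list genes (10 lower unadjusted). Under these settings the share of all genes at an unadjusted p under 0.05 was not counted. The unadjusted counts thus do not show that any lost call persists. With no filter on dim probes there were 4 and 2 members, 541 and 497 of all genes, and 12 and 8 list genes. An intensity trend gave 4 and 3 members, with 458 and 433 of all genes. No background subtraction, and scaling between arrays, each gave 2 members lower. Of all genes, 463 and 430 passed with the former, and 410 and 391 with the latter. An adjusted p under 0.10 gave 5 and 3 members, and 15 and 9 list genes. That threshold was passed by 25% of members and 5.57% of all genes. The cause was not tested. Leaving out population-outlier spots was chosen after seeing the data, and gave 3 members higher and 1 lower, with 422 and 398 of all genes. Every test is of ratios within a pair, and leaving out a pair leaves 1 ratio with no test. The 4 dim members limit what can be said of their level.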

Other observations

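Markers of other cell types that carry integrins and laminins were also measured. Of 13 endothelium markers tested 0 passed in limma, 5 were higher at an unadjusted p under 0.05, and the median was 0.15, with Erg not passing the filter. Their summed log2 level was 17.31 and 17.48 in the labelled knockouts and 17.21 and 17.19 in the controls. Of 9 nephron lineage markers 0 passed in limma, 1 was higher and 1 lower at an unadjusted p under 0.05, and the median was 0.041. The medians within the pairs were -0.056 (female) and -0.027 (male). Of these markers, 1 was above 0 in both pairs, 3 below and 5 opposite, against 27.6%, 28.2% and 44.2% of all genes. Among the 5 were Six2, with -0.34 (female) and 1.11 (male), and Wt1, with -0.032 and 0.79. This difference between the pairs was not tested. Skeletal muscle markers had 1 of 8 lower, against 1.81% of all genes, and a median of -0.20. The 1 that fell was Acta1, an actin (mean -2.06 ± 0.69, limma adjusted p = 0.00462). Myod1, Myog, Myh3, Myh8, Ttn, Actn2 and Tnnt3 did not pass.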
